A study of Homo sapiens with 8 samples.

Results

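The enzymes described here make serine and pass its carbon into the folate cycle. They are 9 of the 60651 genes in the table: PHGDH, PSAT1, PSPH, SHMT1, SHMT2, MTHFD1, MTHFD1L, MTHFD2 and ALDH1L2. They were chosen by gene symbol, with earlier results of these data known, so counts among them are not tests of a set fixed in advance. Each was matched to 1 Ensembl identifier with the version ignored, and all 9 passed the filter on low values (an average of 1 TPM or more). Of these enzymes, 5 act in the cytosol and 4 in mitochondria. Ribosome footprints, the stretches of mRNA left covered by ribosomes after RNase I digestion, were measured in IMR32 cells, a human neuroblastoma line with amplified MYCN and, per the labels, a WT genotype. The 4 libraries of the treated group came from cells given CR31B, a silvestrol analogue of the rocaglate class that acts on the RNA helicase eIF4A, for 6 h, at a dose that the labels do not give. The 4 control libraries came from cells given DMSO (0.1%). Cells of both groups received cycloheximide, which halts elongating ribosomes, before harvest. All libraries come from 1 cell line.

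Serine synthesis branches from glycolysis in the cytosol: PHGDH oxidizes 3-phosphoglycerate, PSAT1 transfers an amino group to the product, and PSPH removes the phosphate to release serine. The serine hydroxymethyltransferases SHMT1 (cytosol) and SHMT2 (mitochondria) then split serine into glycine and a carbon unit carried by tetrahydrofolate. In mitochondria MTHFD2 oxidizes that unit, MTHFD1L then releases it as formate, and ALDH1L2 can instead oxidize it to carbon dioxide. In the cytosol the trifunctional MTHFD1 carries out the matching folate interconversions. The mitochondrial branch is known for supplying formate to proliferating cells, and several of these genes are textbook targets of the stress-induced transcription factor ATF4.

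The CR31B libraries listed between 17857 and 19758 genes above 0 and the DMSO libraries between 19043 and 22270. TPM keeps no read depth, but low values of short single-transcript genes fell on steps, from which the worth of 1 read (TPM multiplied by transcript length in nt) was estimated. It was 17.75 to 24.9 in CR31B and 12.5 to 21.0 in DMSO. A higher worth means fewer reads, so the treated library was the shallower at every replicate number. The part of depth in the results was not tested. With the annotated transcript lengths this gives an estimated 1042 to 2895 reads per library for ALDH1L2, the lowest enzyme in TPM, and 1460 to 2538 for SHMT1. Of 8 markers of adrenergic neuroblastoma, 7 had a mean of at least 1 TPM, GATA3 at 34.04 to 52.3 TPM among them, while TH was at 0.35 to 1.19 TPM. Of 11 markers of other cell types 10 stayed under 1 TPM in every library and COL1A1 was at 5.28 to 16.1 TPM; CD3E, PECAM1 and PRRX1 were at 0 throughout. The summed level of these 11 markers ran from 5.28 to 12.4 TPM in CR31B and from 8.37 to 16.1 TPM in DMSO, and its part in the results was not tested.

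Within this set, the serine synthesis enzymes and the mitochondrial folate enzymes rose under CR31B, and the cytosolic folate enzymes did not pass the test. Of the 9 enzymes, 7 were higher in CR31B at a limma adjusted p under 0.05 and none was lower. Among all 11778 genes tested, 7.46% were called, 3.45% upward (406 genes) and 4.02% downward (473 genes). With TPM rescaled over protein-coding genes the balance turned, to 662 genes upward and 565 downward. Over the 9 enzymes the median log2 fold change was 0.85, and over all genes tested it was 0.029; fold changes here are of TPM + 1, which understates the change of low genes. Without CR31B replicate 4 or without DMSO replicate 2, 4 enzymes passed, while each of these fits called 515 of the 11778 genes tested. When no filter on low values was applied 4 enzymes passed, while 442 of 28564 genes were called. Groups did not overlap for 7 of the 9 enzymes, with CR31B higher in each; of all genes tested 16.2% had no overlap, 8.07% upward and 8.14% downward. With the replicate number as a block the same count of 7 enzymes passed, while the share of all genes called became 12.3%, 5.77% upward and 6.56% downward. A footprint level joins the amount of an mRNA with its translation, and matched RNA levels were not analysed here. TPM fixes the sum of each library, so neither the number of cells nor the total of footprints per cell can be seen.

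**Figure D1:**
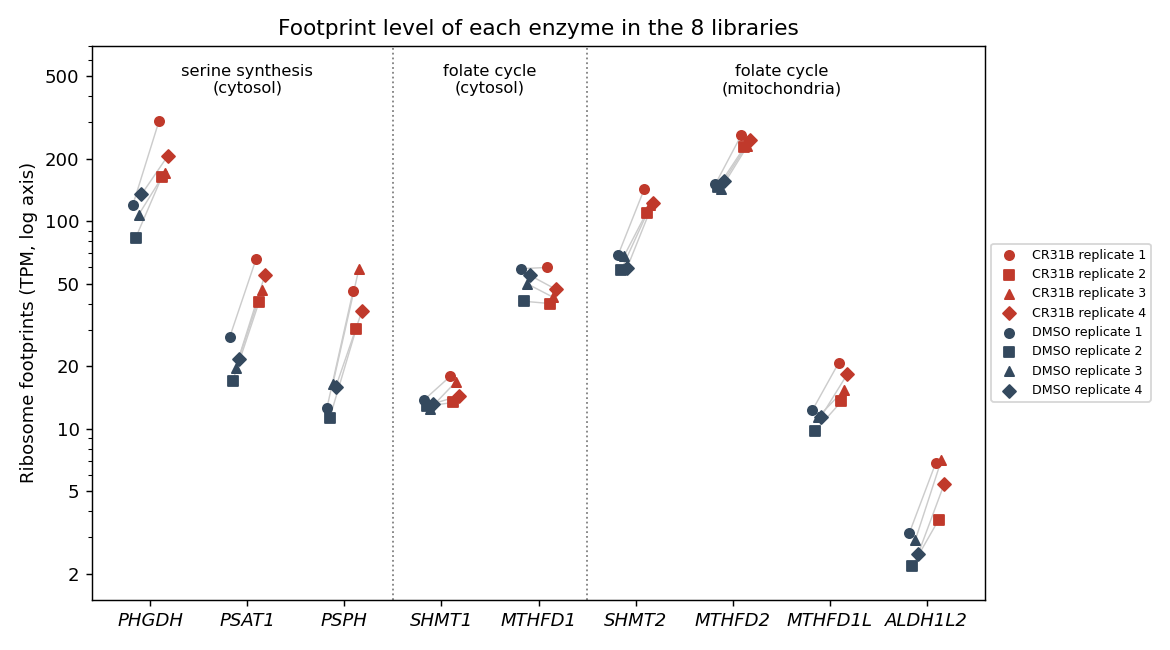
Footprint level (TPM, log axis) of each enzyme in each library, with DMSO in dark blue, CR31B in red, the marker shape giving the replicate number and grey lines joining libraries of the same number. For 7 enzymes all CR31B points lie above all DMSO points, while SHMT1 and MTHFD1 overlap between groups.

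Among the serine synthesis enzymes, PHGDH (ENSG00000092621.13, chr1:119648411-119744226, plus strand) encodes the entry enzyme of the pathway. The CR31B libraries held 304, 164, 172 and 206 TPM and the DMSO libraries 119, 83.2, 107 and 135 TPM, each in the order of replicates 1 to 4, as throughout. The lowest treated library was thus above the highest control library, and CR31B replicate 1 stood well above the other treated libraries. The means were 211 ± 64.2 and 111 ± 21.8 TPM (SD, n = 4 each). PHGDH rose, with a log2 fold change of 0.90 and a 95% confidence interval from 0.43 to 1.36 (SE 0.21; limma adjusted p of 0.0286). This call was lost without CR31B replicate 4 and without DMSO replicate 1, 2 or 3, where the limma adjusted p ran from 0.0549 to 0.0771.

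PSAT1 (ENSG00000135069.14, chr9:78297143-78330093, plus strand), the aminotransferase of the second step, held 65.7, 40.7, 46.9 and 54.8 TPM in the treated libraries and 27.8, 17.04, 19.7 and 21.8 TPM in the controls. Groups were far apart, and within the replicate pairs the CR31B to DMSO ratio was nearly constant, from 2.37 to 2.51. The means were 52.02 ± 10.8 and 21.6 ± 4.57 TPM (SD, n = 4 each), and the log2 fold change was 1.23, with a 95% confidence interval from 0.83 to 1.63 (SE 0.18; limma adjusted p of 0.00380). PSAT1 has 4 annotated pseudogene copies, to which reads could have been assigned, so its level is uncertain to that extent. One of them, PSAT1P1, singled out after its values were seen, also rose, from 2.37 ± 0.210 to 7.40 ± 1.86 TPM (SD, n = 4 each; log2 fold change 1.29, limma adjusted p of 0.00232). With the copies added to the gene, the mean went from 25.7 ± 4.30 to 63.2 ± 10.97 TPM (SD, n = 4 each), a fold of 2.46 against 2.41 for PSAT1 alone.

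PSPH (ENSG00000146733.14, chr7:56011051-56051604, minus strand), the phosphatase that completes serine synthesis, showed the largest fold of the 9 enzymes. It held 46.2, 30.2, 59.04 and 36.8 TPM in the treated libraries and 12.6, 11.3, 16.4 and 15.8 TPM in the controls. The lowest CR31B library was therefore well above the highest DMSO library. The means were 43.04 ± 12.5 and 14.03 ± 2.46 TPM (SD, n = 4 each), and the log2 fold change was 1.52, with a 95% confidence interval from 1.07 to 1.97 (SE 0.20; limma adjusted p of 0.00243). It ranked 39 by rise among the 11778 genes tested. The pseudogene PSPHP1 reached at most 3.27 TPM. PSPH and PSAT1 passed in every alternative fit that was run, each library left out in turn included.

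The sequences upstream of the start sites were searched on both strands for 3 motifs, because most of these genes moved together. The motifs were TGATGNAA, the core of the element bound by ATF4 with C/EBP factors, CACGTG, the E-box bound by MYC-family proteins, and CCAAT, the box bound by NF-Y. No printed match overlaps another. RefSeq promoter windows (GRCh38.p14, from 250 bases before to 50 bases after an annotated start) were matched for 6 of the 9 enzymes; PSPH, SHMT2 and ALDH1L2 had none in that table. CCAAT was found in a window of all 6, against 39.7% of the 27305 genes in the table (34.6% of its 35116 windows). TGATGNAA was found in MTHFD1L alone of the 6 (4.46% of all genes and 3.62% of all windows), and CACGTG in MTHFD1L and MTHFD1 (8.77% of all genes and 7.26% of all windows). MTHFD1L has 4 windows in which a match could fall. A match is a run of letters and not a shown binding site, and the genes that rose and those that did not share CCAAT. The PSAT1 promoter (chr9:78296875-78297124, plus strand) is shown because it holds 3 CCAAT boxes, 113, 83 and 52 bases before the start. The PHGDH stretch of 30 bases (chr1:119711851-119711880, plus strand) holds its single one. That stretch precedes the RefSeq start but lies inside the GENCODE span of PHGDH, which begins further upstream. Capitals mark the motifs.
PSAT1: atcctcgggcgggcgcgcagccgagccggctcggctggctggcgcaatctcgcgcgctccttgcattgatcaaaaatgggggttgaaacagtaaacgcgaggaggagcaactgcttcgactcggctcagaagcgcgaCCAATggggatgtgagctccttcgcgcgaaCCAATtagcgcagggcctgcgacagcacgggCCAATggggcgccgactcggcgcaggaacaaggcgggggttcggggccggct
PHGDH: gagtatttccgtCCAATcaaaaggagactg

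Among the mitochondrial folate enzymes, SHMT2 (ENSG00000182199.11, chr12:57229327-57234935, plus strand), which loads the carbon of serine onto folate in mitochondria, held 143, 109.8, 119 and 122 TPM in the treated libraries and 68.9, 58.2, 67.9 and 59.3 TPM in the controls. The treated libraries clustered closely and lay far above the controls. The means were 123.7 ± 14.2 and 63.6 ± 5.59 TPM (SD, n = 4 each), and the log2 fold change was 0.95, with a 95% confidence interval from 0.69 to 1.21 (SE 0.12; limma adjusted p of 0.00193).

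MTHFD2 (ENSG00000065911.13, chr2:74198562-74217565, plus strand), a dehydrogenase and cyclohydrolase, held 261, 228, 229.9 and 247 TPM in the treated libraries and 151, 147, 144 and 157 TPM in the controls. It had the smallest relative spread of the 9 enzymes in CR31B. The means were 241 ± 15.7 and 149.5 ± 5.68 TPM (SD, n = 4 each), and the log2 fold change was 0.69, with a 95% confidence interval from 0.47 to 0.91 (SE 0.10; limma adjusted p of 0.00380). None of its 7 annotated pseudogene copies reached 1 TPM, the highest being at 0.84 TPM. SHMT2 and MTHFD2 passed in every alternative fit that was run, each library left out in turn included.

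MTHFD1L (ENSG00000120254.16, chr6:150865549-151101887, plus strand), which releases formate, held 20.7, 13.5, 15.4 and 18.3 TPM in the treated libraries and 12.3, 9.77, 11.41 and 11.44 TPM in the controls. The groups did not overlap, but CR31B replicate 2 came close to DMSO replicate 1. The means were 17.0 ± 3.16 and 11.2 ± 1.05 TPM (SD, n = 4 each), and the log2 fold change was 0.55, with a 95% confidence interval from 0.22 to 0.87 (SE 0.15; limma adjusted p of 0.0478). This was the least stable of the 7 calls: it was lost when any library except CR31B replicate 2 was left out, with limma adjusted p from 0.0656 to 0.124, and also without a variance trend (0.0557).

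ALDH1L2 (ENSG00000136010.14, chr12:105019784-105084577, minus strand), the mitochondrial formyltetrahydrofolate dehydrogenase, was the lowest of the 9 enzymes in TPM. It held 6.81, 3.63, 7.07 and 5.44 TPM in the treated libraries and 3.15, 2.18, 2.90 and 2.49 TPM in the controls, again without overlap. The means were 5.74 ± 1.58 and 2.68 ± 0.430 TPM (SD, n = 4 each), and the log2 fold change was 0.85, with a 95% confidence interval from 0.43 to 1.27 (SE 0.19; limma adjusted p of 0.0253). The call was lost without CR31B replicate 1, 3 or 4 and without DMSO replicate 2 or 4, at limma adjusted p from 0.0571 to 0.0764. Its exons overlap C12orf45 on the opposite strand, and since whether reads were counted by strand is not given in the sources used here, its value is uncertain. C12orf45 itself went from 19.5 ± 2.40 to 18.5 ± 2.97 TPM (SD, n = 4 each; log2 fold change -0.079 and limma adjusted p of 0.789).

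The MTHFD2 stretch (chr2:74198365-74198561, plus strand) ends before the first annotated GENCODE transcript and holds CCAAT 184 and 74 bases before the RefSeq start. The MTHFD1L stretch of 30 bases (chr6:150866346-150866375, plus strand) is shown because it carries the TGATGNAA match found in none of the other 5 enzymes with a window, 129 bases before 1 of its 4 listed starts. The same letters lie in 3 of its 4 windows, which overlap: they are also 90 bases before another listed start and 24 bases after a further one. The printed stretch lies inside the GENCODE span of MTHFD1L, which begins further upstream.
MTHFD2: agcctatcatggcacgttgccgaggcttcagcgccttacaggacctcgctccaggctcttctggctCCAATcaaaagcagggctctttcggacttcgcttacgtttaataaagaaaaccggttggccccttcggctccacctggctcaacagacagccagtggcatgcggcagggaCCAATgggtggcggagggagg
MTHFD1L: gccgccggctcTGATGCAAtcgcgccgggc

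Of the cytosolic folate enzymes, SHMT1 (ENSG00000176974.20, chr17:18327860-18363563, minus strand) held 17.9, 13.4, 16.9 and 14.4 TPM in the treated libraries and 13.8, 12.8, 12.4 and 13.2 TPM in the controls. The groups overlapped, although CR31B was the higher in 4 of 4 replicate pairs. The means were 15.6 ± 2.09 and 13.1 ± 0.555 TPM (SD, n = 4 each), and the log2 fold change was 0.23, with a 95% confidence interval from -0.033 to 0.50 (SE 0.12; limma adjusted p of 0.275). MTHFD1 (ENSG00000100714.17, chr14:64388031-64463457, plus strand) held 59.9, 40.1, 43.04 and 46.96 TPM in the treated libraries and 59.1, 41.1, 50.03 and 54.9 TPM in the controls, so the groups overlapped, with 1 treated library just above and 1 just under the control range. The means were 47.5 ± 8.73 and 51.3 ± 7.70 TPM (SD, n = 4 each), and the log2 fold change was -0.11, with a 95% confidence interval from -0.45 to 0.23 (SE 0.15; limma adjusted p of 0.715). Neither enzyme passed in any alternative fit.

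The SHMT1 promoter (chr17:18363564-18363800, minus strand) and 30 bases at the MTHFD1 start (chr14:64388326-64388355, plus strand) are shown for contrast with the genes that rose. SHMT1 holds CCAAT 76 bases before its start and the reverse complement 25 bases before it. MTHFD1 holds an E-box 15 bases before its RefSeq start, inside the GENCODE span of the gene.
SHMT1: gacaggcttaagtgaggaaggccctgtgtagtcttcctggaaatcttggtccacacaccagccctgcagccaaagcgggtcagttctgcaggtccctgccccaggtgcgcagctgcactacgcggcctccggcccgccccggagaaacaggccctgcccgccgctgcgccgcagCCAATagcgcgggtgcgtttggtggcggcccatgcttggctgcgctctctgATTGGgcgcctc
MTHFD1: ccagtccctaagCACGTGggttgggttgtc

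**Figure D2:**
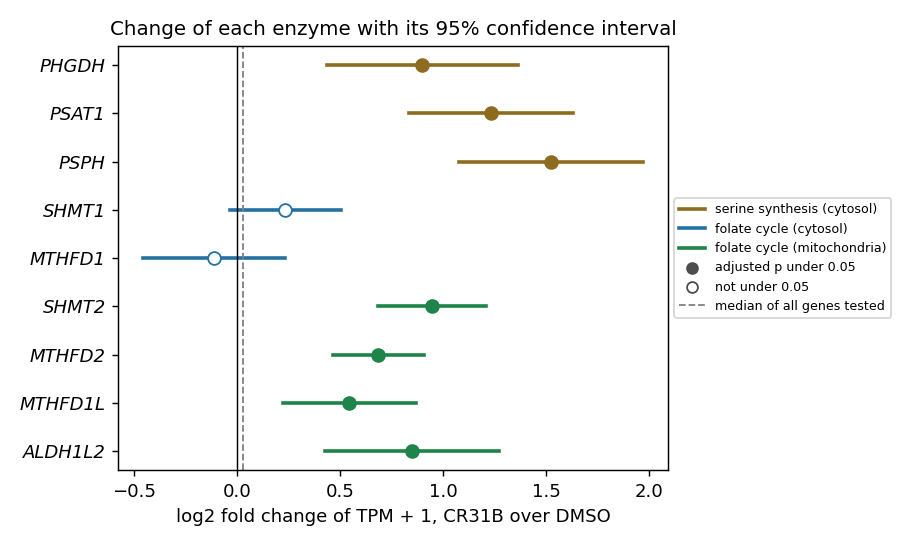
Log2 fold change of TPM + 1, CR31B over DMSO, for each enzyme, with its 95% confidence interval from limma; filled points have an adjusted p under 0.05 and the dashed line is the median of all genes tested, 0.029. The intervals of the serine synthesis and mitochondrial enzymes lie above 0, and those of SHMT1 and MTHFD1 include it.

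Whether the mitochondrial enzymes changed relative to their cytosolic counterparts was tested on the difference of log2(TPM + 1) within each library. The ratio of TPM does not depend on how a library was scaled, but the added 1 makes the tested difference depend on it. With 0.1 added in place of 1, the log2 differences of the ratios below were 0.71, 0.80 and 0.69, in the order given. The SHMT2 to SHMT1 ratio was 8.02, 8.20, 7.07 and 8.51 in CR31B and 5.01, 4.53, 5.45 and 4.501 in DMSO, without overlap. Its means were 7.95 ± 0.622 and 4.87 ± 0.451 (SD, n = 4 each), and the log2 difference was 0.71. The MTHFD2 to MTHFD1 ratio was 4.36, 5.67, 5.34 and 5.26 in CR31B and 2.55, 3.57, 2.87 and 2.86 in DMSO. It averaged 5.16 ± 0.562 and 2.96 ± 0.432 (SD, n = 4 each), a log2 difference of 0.80. The MTHFD1L to MTHFD1 ratio was 0.346, 0.337, 0.358 and 0.390 in CR31B and 0.208, 0.237, 0.228 and 0.208 in DMSO. Its means were 0.358 ± 0.0231 and 0.220 ± 0.0148 (SD, n = 4 each), a log2 difference of 0.66. For each of the 3 ratios the two-sided exact permutation p without pairing was 0.0286, the smallest that 70 assignments allow, and it was the same after adjustment over the 3 ratios. In 4 of 4 replicate pairs each ratio was the higher under CR31B, but the exact permutation p within pairs was 0.125, the smallest that 4 pairs allow, so no ratio passes in the paired test. The ratios to MTHFD1 share that gene and are not independent. The enzymes were chosen with earlier results of these data known, which limits what all 3 tests can show. The fourth pair, ALDH1L2 and its cytosolic counterpart ALDH1L1, gave no ratio, because ALDH1L1 was between 0 and 0.28 TPM in the 8 libraries.

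**Figure D3:**
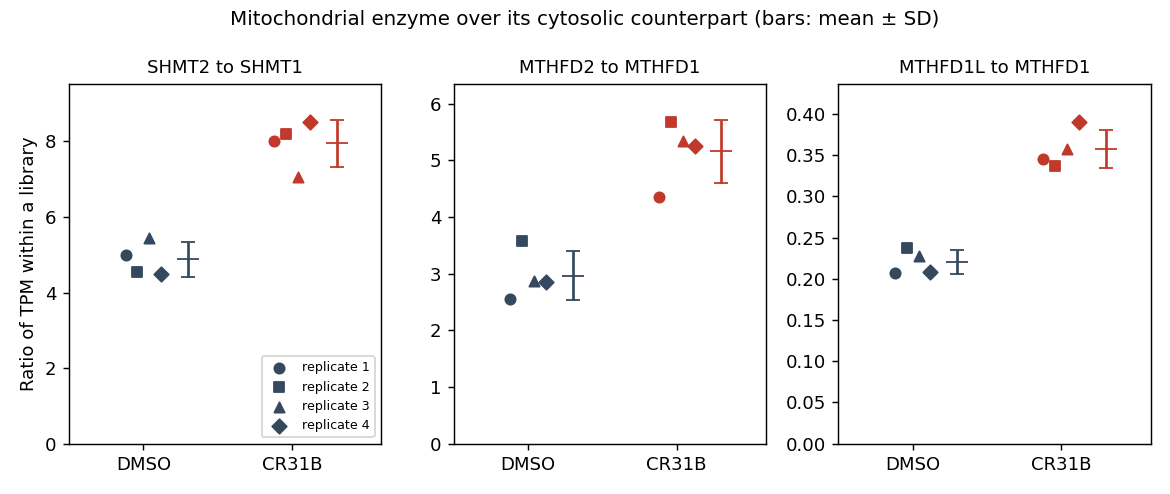
Ratio of TPM of a mitochondrial enzyme to its cytosolic counterpart in each library (linear axes from 0), with points by replicate number and bars giving mean ± SD over 4 libraries. In each panel every CR31B point lies above every DMSO point.

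TPM is scaled per length, so levels can be set beside each other across genes, but only roughly. Whether that length was of the whole transcript or of its coding part, where elongating ribosomes sit, is not given in the sources used here. Annotated transcripts of the enzymes ran from 2096 nt (PHGDH) to 7547 nt (ALDH1L2), so the order below is uncertain to that extent. In DMSO the order was MTHFD2, PHGDH, SHMT2, MTHFD1, PSAT1, PSPH, SHMT1, MTHFD1L and ALDH1L2. Neighbours whose library ranges overlapped were SHMT2 with MTHFD1 and PSPH with SHMT1. In CR31B MTHFD2 and PHGDH remained first but their ranges overlapped, and PSAT1, MTHFD1 and PSPH followed SHMT2 with overlapping ranges. MTHFD1L and SHMT1 overlapped next, and ALDH1L2 remained last at 5.74 ± 1.58 TPM (SD, n = 4). Thus PSPH, which overlapped SHMT1 in DMSO, had no library in CR31B as low as any SHMT1 library.

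Libraries of a group differed in a shared way. CR31B replicate 1 held the highest value of its group for 7 of the 9 enzymes, and CR31B replicate 2 held the lowest for all 9. In DMSO, replicate 1 was highest for 6 and replicate 2 lowest for 7. After removal of the group means, the correlation between enzymes over the 8 libraries was above 0 for all 36 pairs of enzymes, with a median r of 0.68 and a range from 0.13 to 0.96, given as a description since the points share libraries and depth. PSPH and ALDH1L2 departed from the others in CR31B replicate 3, where both had their highest value. Protein-coding genes took 61.3% of TPM in CR31B replicate 1 and from 51.8% to 52.3% in the other CR31B libraries, and from 52.0% to 58.4% in DMSO. With TPM rescaled over protein-coding genes, 7 enzymes again passed, while 1227 of the 11136 genes then tested were called. The part of the protein-coding share in the differences between libraries was not tested.

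**Figure D4:**
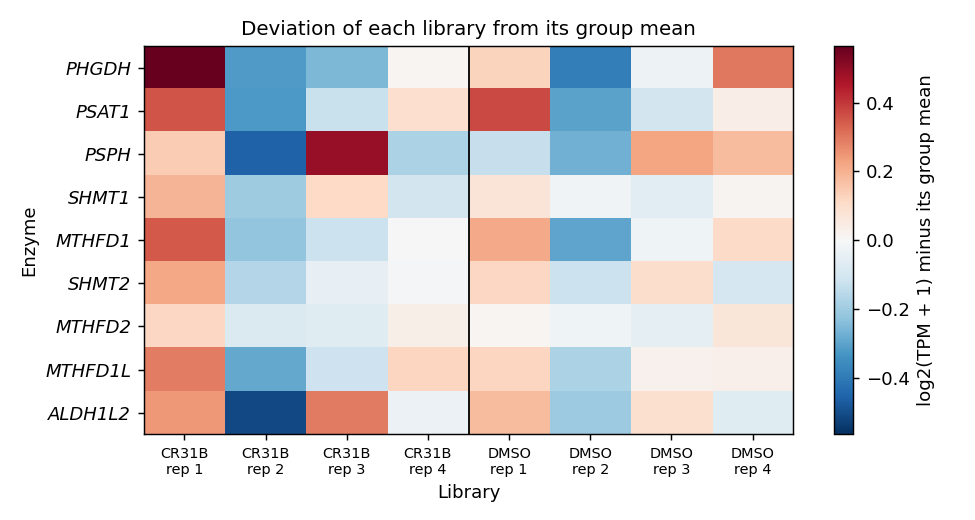
Deviation of log2(TPM + 1) from the group mean for each enzyme (rows) and library (columns), red above and blue below the mean of that group. CR31B replicate 2 is below its group mean for all 9 enzymes and CR31B replicate 1 above it for all 9.

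The other genes of serine, glycine and folate metabolism mostly did not pass the test. Of 63 genes in 6 lists, 52 were tested; 2 rose, 3 fell and 47 did not pass, with a median log2 fold change of 0.0015. The shares of all genes tested were 3.45% upward and 4.02% downward. With the replicate number as a block, 8 passed, 3 higher and 5 lower, while 12.3% of all genes tested then passed. Without CR31B replicate 2, 3 or 4, or DMSO replicate 4, 2 passed, while these fits called 738, 631, 515 and 405 of all 11778 genes tested. Without DMSO replicate 1 or 2 only 1 passed, while 502 and 515 of all genes tested were called.

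Among 11 tested folate interconversion enzymes, GLDC fell. GLDC, the decarboxylase of the mitochondrial glycine cleavage system, went from 6.77 ± 2.11 TPM in controls to 3.35 ± 0.784 TPM after treatment (SD, n = 4 each), without overlap (log2 fold change -0.81 with SE 0.21; limma adjusted p of 0.0414). Its call was lost without CR31B replicate 2, 3 or 4 or DMSO replicate 1 or 2 (limma adjusted p from 0.0826 to 0.113).

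Among 15 tested genes of serine and glycine transport and breakdown, SLC6A9 rose and SFXN1 and SFXN3 fell. SLC6A9, the glycine transporter GlyT1 of the plasma membrane, went from 0.560 ± 0.180 to 2.78 ± 0.767 TPM (SD, n = 4 each), without overlap (log2 fold change 1.26 with SE 0.18; limma adjusted p of 0.00382), and it passed with each library left out. It reached the filter on low values only through the treated libraries, since every control was under 1 TPM. With no filter its limma adjusted p was 0.0253. SFXN1, which carries serine into mitochondria, went from 107 ± 12.5 to 75.3 ± 4.87 TPM (SD, n = 4 each; log2 fold change -0.50 with SE 0.12 and limma adjusted p of 0.0281). Its paralog SFXN3 went from 8.01 ± 0.669 to 4.77 ± 1.01 TPM (SD, n = 4 each; log2 fold change -0.66 with SE 0.15 and limma adjusted p of 0.0275). All CR31B libraries were below all DMSO libraries for both. The SFXN1 call was lost without any library but CR31B replicate 1 or DMSO replicate 3 (limma adjusted p from 0.0504 to 0.0949), and the SFXN3 call without CR31B replicate 2 or 4 or any DMSO library (0.0563 to 0.0668).

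No gene passed among 5 tested genes of folate uptake, retention and transport, 7 of folate-using nucleotide synthesis, 9 of the methionine cycle and transsulfuration, and 5 glycolytic enzymes around 3-phosphoglycerate, the substrate of PHGDH. Their median log2 fold changes were -0.18, 0.18, -0.029 and -0.0074. TYMS, the thymidylate synthase that uses the folate carbon unit, named here after its values were seen, went from 196 to 208 TPM (log2 fold change 0.077, 95% confidence interval -0.17 to 0.33, limma adjusted p of 0.738). With the replicate block 3 further genes passed, named here after their values were seen. They were SLC19A1, the reduced folate carrier (log2 fold change -0.42, limma adjusted p of 0.0411 with the block and 0.0586 without it), SLC1A5, a neutral amino acid transporter (-0.42, 0.0227 and 0.182), and the methionine synthase MTR (0.42, 0.0467 and 0.0954).

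**Figure D5:**
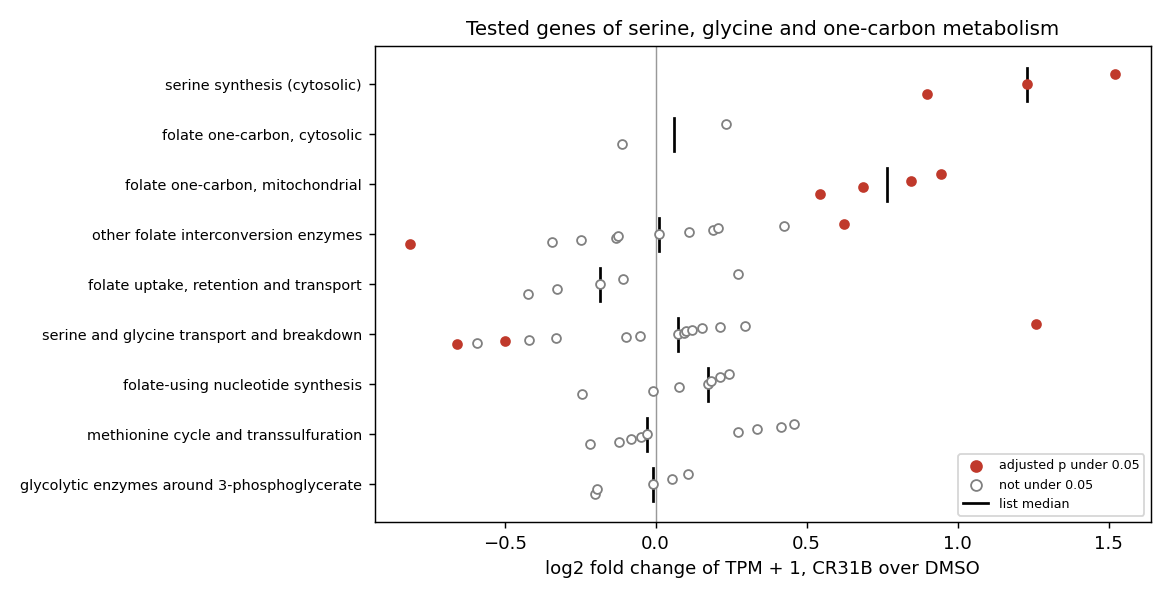
Log2 fold change of TPM + 1, CR31B over DMSO, for the tested genes of each list (1 point per gene, filled red at a limma adjusted p under 0.05, black bar for the list median). The points of the serine synthesis list and of the mitochondrial folate list lie to the right of 0, and the medians of the 6 other pathway lists lie between -0.18 and 0.18.

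ATF4, a transcription factor known to act on several of these genes, held 313, 204, 280.0 and 309 TPM in the treated libraries and 172, 176, 106 and 181 TPM in the controls. Groups did not overlap, and it rose (log2 fold change 0.81 with SE 0.20, limma adjusted p of 0.0338). Values are per gene, so footprints upstream of the coding sequence cannot be told apart from those on it. The ATF4 call was lost without CR31B replicate 1, 3 or 4 or DMSO replicate 1, 2 or 4 (limma adjusted p from 0.0604 to 0.0906). MYCN, the amplified oncogene of the line, differed by 0.55 on the log2 scale, with a limma adjusted p of 0.110. It passed with the replicate block (limma adjusted p of 0.0301), with TPM rescaled over protein-coding genes (0.0394) and without CR31B replicate 2 (0.0245). MYC was at most 0.88 TPM in any library.

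The genes whose pattern was most like that of the 9 enzymes were ranked by Pearson r over the 8 libraries with the mean of their standardised log2 values, among genes that averaged 10 TPM or more. The 5 highest were TOMM70 (r 0.993), CARS1 (0.988), EIF4A2 (0.983), GPT2 (0.981) and ASNS (0.979). TOMM70 is a receptor for protein import into mitochondria, CARS1 charges tRNA with cysteine, EIF4A2 is an eIF4A paralog, GPT2 is the mitochondrial alanine aminotransferase and ASNS makes asparagine. ASNS went from 22.5 ± 4.73 to 52.8 ± 13.2 TPM (SD, n = 4 each; log2 fold change 1.19, limma adjusted p of 0.00568), while TOMM70 went from 19.2 ± 1.57 to 26.2 ± 3.78 TPM and did not pass (log2 fold change 0.42, limma adjusted p of 0.0755). With the group means removed, the 5 highest were CCNB2, IPO5, TOMM70, HSPA9 and GSTM3, with r from 0.989 to 0.995. These values are descriptions over 8 libraries that share the same depth and composition in every gene.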

How the data were processed

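Ribosome footprints of 8 IMR32 libraries (4 CR31B, 4 DMSO) were analysed from the table of TPM that the authors deposited, with 60651 genes and every column matched to a library. The submitters' processing notes name cutadapt 3.2, Bowtie2 2.3.4.1, STAR 2.7.1a and RSEM 1.2.28 and the build GRCh38; the annotation, strand setting and treatment of reads with several positions are not given in the sources used here. TPM divides by length and fixes each library's sum, so a rise in 1 class lowers all others. Symbols were found for 60481 identifiers. Locations, exon overlaps and transcript lengths came from GENCODE 29 (GRCh38), matched for 58405 identifiers.

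The 11778 genes averaging 1 TPM or more were fitted as log2(TPM + 1) with limma 3.58.1 in R 4.3.3 (treatment only, variance trend), with p-values adjusted by Benjamini-Hochberg over all of them. Single values were compared by two-sided exact permutation over 70 assignments (Python 3.11.15, SciPy 1.17.1). Intervals are limma's 95% intervals. On 5 simulated tables with 200 changed genes among 11778, 77.2% of genes changed 2-fold and 95.7% of those changed 4-fold were recovered, and 4.42% of calls were false. Each simulated gene varied independently, without the deviations that real libraries and replicate numbers share across genes, so these rates need not hold for the real data.

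The 9 enzymes and all lists were chosen with earlier results of these data known. Named genes were all 9 enzymes, each pathway gene with a limma adjusted p under 0.05, ATF4, MYCN and MYC, and the 5 genes most alike in pattern; 1 of the pathway genes called is not reported here. Alternatives were another pseudocount, other filters, quantile normalization, rescaling over protein-coding genes, no variance trend, a replicate block and each library left out. Both groups carry the replicate numbers 1 to 4, whose meaning the labels leave unsaid. After removal of the group means, libraries with the same number correlated across genes at 0.333, 0.324, 0.301 and 0.105, against -0.206 to 0.134 for other numbers. The numbers were therefore taken to mark pairs. For number 4 this is uncertain, since CR31B replicate 4 correlated at 0.134 with DMSO replicate 1 and at 0.105 with DMSO replicate 4. Pairs enter only the replicate block and the exact tests within pairs, which are alternatives to the unpaired tests above.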

Additional observations from a re-analysis of the deposited data

Results flagged for a closer look

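In the DMSO group the ATF4 level of replicate 3 was 106.2 TPM while the other 3 libraries lay between 172 and 181 TPM, a gap of 88.1% of the group's range. Without that library the log2 fold change of ATF4 was 0.63 in place of 0.81 (limma adjusted p of 0.0469). Of 38 groups of 4 libraries examined in this way, over the 9 enzymes, the 5 pathway genes called, ATF4, MYCN and the 3 ratios, this was the only one with a library so far from the rest; chance gives about 1 in 20. The pathway genes that were not called were not examined in this way.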

How the results depend on the processing

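Of 134 values of single enzymes under alternative settings, 114 kept both direction and call, 20 no longer passed and none changed sign; over the other genes followed in this way these numbers were 66, 33 and 0 of 102, and 3 newly passed. The count of genes changed, 879, was 442 with no filter, 1453 with the replicate block and from 405 to 785 with a library left out (405 without DMSO replicate 4, 502 without DMSO replicate 1, and 515 without CR31B replicate 4 or DMSO replicate 2). The count of enzymes called, 7, was 4 with no filter and from 4 to 7 with a library left out; the cause was not tested. PHGDH, MTHFD1L and ALDH1L2 lost their calls with no filter (limma adjusted p of 0.117, 0.119 and 0.0942), where 28564 genes were tested in place of 11778. The count of other pathway genes called, 5, was 1 with no filter, 2 at a mean of at least 10 TPM, where fewer of them were tested, 8 with the replicate block and from 1 to 6 with a library left out. The block changed no call of an enzyme. The log2 differences of the ratios ran from 0.68 to 0.77 (SHMT2 to SHMT1), 0.73 to 0.89 (MTHFD2 to MTHFD1) and 0.62 to 0.70 (MTHFD1L to MTHFD1). Within replicate pairs (block) they were 0.71, 0.80 and 0.66 with an exact p of 0.125, the smallest that 4 pairs allow. The ratio of ALDH1L2 to ALDH1L1 was not run. TPM gives no counting error, so precision rests on 4 libraries a group.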
